A study of Homo sapiens with 6 samples.

Results

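Matrix metalloproteinases (MMPs) and their tissue inhibitors (TIMPs) were followed in YCC3 cells after silencing of CTNNB1, the gene of beta-catenin. The 10 genes were chosen as a named family, 8 proteinase genes (MMP1, MMP2, MMP3, MMP7, MMP9, MMP10, MMP13 and MMP14) and 2 inhibitor genes (TIMP1 and TIMP2), out of 18417 genes measured. Each was read from an array row whose only gene symbol was that of the gene, and all 10 had exactly 1 such row. No row with several symbols held any of the 10.

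YCC3 is a human gastric cancer cell line. Cells in culture plates were transfected with siRNA against CTNNB1 (3 arrays) or with non-targeting control siRNA (3 arrays), and total RNA was taken 48 hours later and hybridised to Affymetrix Human Gene 1.0 ST arrays. Small interfering RNAs are taken up into a protein complex that cleaves mRNAs of matching sequence, and both groups received such an RNA. The labels name 1 cell line, call the samples biological replicates and give neither the siRNA sequences nor whether 1 siRNA or a pool was used. They do not say whether replicates were separate cultures, so the p-values rest on the spread among these 6 samples only, which may be technical.

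MMPs are zinc-dependent endopeptidases that are made as inactive proenzymes and cut collagens, laminins, gelatin and other matrix proteins once activated. TIMPs are small secreted proteins that bind the active site of MMPs and block it. Beta-catenin joins cadherins to the cytoskeleton and also enters the nucleus, where it acts with DNA-binding TCF/LEF factors as the co-activator of the Wnt pathway. MMP7 (matrilysin), an epithelial proteinase of gastrointestinal tumours, and MMP14, a membrane-anchored collagenase, are described as targets of this pathway, and many secreted MMP genes also respond to AP-1, the dimer of FOS and JUN proteins.

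Promoters of the members show where these factors could bind. RefSeq promoter sequences (GRCh38.p14) were matched for 4 of the 10 genes: MMP7, MMP10, MMP14 and TIMP1. The 250 bases before each transcription start were searched on both strands for the AP-1 motif TGANTCA and for the TCF/LEF motif in its forms CTTTGAA or else CTTTGAT, and also CTTTGTA or else CTTTGTT. No match of one motif overlapped a match of the other. The promoters of MMP7 and MMP10 are printed because they hold the matches, which stand in capitals. Both lie on the minus strand and are written 5′ to 3′ up to the base before the start.
MMP7, chr11:102530748-102530997, minus strand: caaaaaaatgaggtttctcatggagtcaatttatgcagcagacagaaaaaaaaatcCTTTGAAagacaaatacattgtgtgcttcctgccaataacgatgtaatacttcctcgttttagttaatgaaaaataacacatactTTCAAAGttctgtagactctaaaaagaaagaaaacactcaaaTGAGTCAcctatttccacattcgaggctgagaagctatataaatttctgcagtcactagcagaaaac
MMP10, chr11:102780629-102780878, minus strand: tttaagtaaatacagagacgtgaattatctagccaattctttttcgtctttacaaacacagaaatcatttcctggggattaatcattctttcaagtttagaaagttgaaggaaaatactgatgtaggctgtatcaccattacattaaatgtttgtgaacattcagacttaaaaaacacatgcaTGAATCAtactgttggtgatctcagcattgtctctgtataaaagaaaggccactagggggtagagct

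In MMP7 the AP-1 match begins 67 bases before the start, and the TCF/LEF matches begin 194 bases (CTTTGAA) and 109 bases (TTCAAAG, the same motif on the other strand) before it. In MMP10 the AP-1 match, TGAATCA, also begins 67 bases before the start, and there was no TCF/LEF match. Neither motif was found in the same window of MMP14 or TIMP1. Of all 35116 promoters in the table, 6.57% held the AP-1 motif in these 250 bases, and 4199 of the 35116 held a TCF/LEF motif. A match is a description of the letters and not a binding site.

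The targeted transcript served as a check of the labels. CTNNB1 measured 11.80, 11.81 and 11.90 on the log2 scale in control arrays 1 to 3 and 10.94, 11.06 and 11.20 in CTNNB1 siRNA arrays 1 to 3. Each knockdown array lay below every control array. The signal changed by -41.4%, with a 95% confidence interval of -49.9% to -31.4% (limma, adjusted p = 0.00267), so the comparison is one of partial loss of the mRNA. Array medians lay between 5.88 and 5.95, and a signal below them was not shown to be above background, since background calls were not analysed here. Signals of different genes come from different probes and are not compared in level.

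Of the 10 members, TIMP2 rose, none fell and 9 did not pass the test. TIMP2 rose 1.44-fold, and the proteinase genes as a group held no called change, with differences between -0.26 and 0.53 log2 units. The median difference was 0.08 log2 units over the 10 members and 0.01 over all genes. Over all 18417 genes, 4.72% were called, 2.07% higher and 2.65% lower (limma, Benjamini-Hochberg adjusted p under 0.05). That balance differed between settings, and not with scaling alone. Rises were 43.9% of calls as deposited, 56.3% under cyclic loess, 34.7% with the dimmest 50% of genes removed and 70.8% with every row tested. At an unadjusted p under 0.05, 4 members lay higher and 0 lower, where 20.3% of all genes passed this cut, 8.34% with the knockdown higher. The per-gene test without moderation called 0 of the 10 members, and 111 of all 18417 genes.

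**Figure D1:**
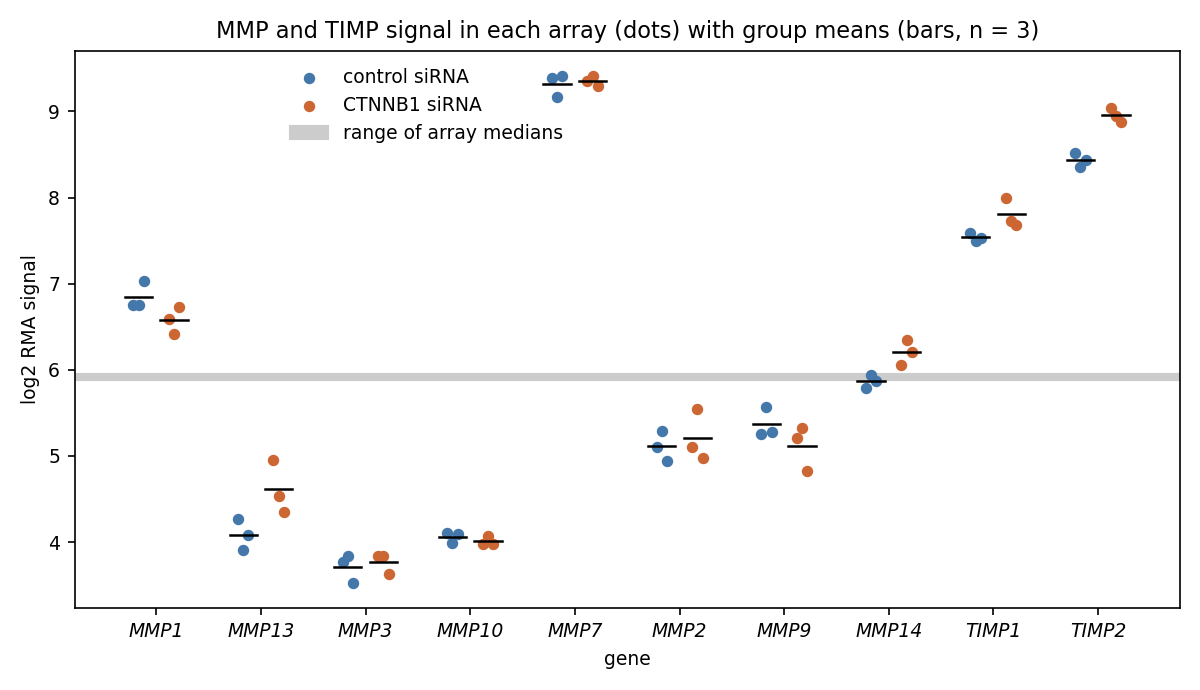
Log2 RMA signal (vertical axis) of the 10 genes in each array, with control siRNA in blue, CTNNB1 siRNA in orange, and black bars for the means of 3 arrays. The grey band spans the array medians, 5.88 to 5.95; the TIMP2 groups are apart by 0.37, while those of MMP7 overlap.

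The inhibitor genes lay higher in every knockdown array. TIMP2, which blocks most MMPs and also takes part in activation of pro-MMP2 at the cell surface, measured 8.52, 8.35 and 8.44 in control arrays 1 to 3 and 9.04, 8.95 and 8.88 in CTNNB1 siRNA arrays 1 to 3. The lowest knockdown array lay 0.37 log2 units above the highest control array, the widest gap between groups among the 10 members. The means were 8.43 ± 0.09 and 8.96 ± 0.08 (SD, n = 3 each). The difference was 0.53 ± 0.10 (SE) log2 units with a 95% confidence interval of 0.31 to 0.74, or 23.9% to 67.5% more signal (limma, adjusted p = 0.0151).

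The direction of TIMP2 held in all 18 other settings, with differences from 0.48 to 0.60, and the call in 13 of them. It was lost without control replicate 2 (adjusted p = 0.0532), without control replicate 3 (adjusted p = 0.0533) and without CTNNB1 siRNA replicate 1 (adjusted p = 0.0723). It was also lost when every row of the array was tested (adjusted p = 0.073) and without moderation of the variance (adjusted p = 0.086).

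TIMP1, the inhibitor gene that many cells induce with growth factors and cytokines, measured 7.59, 7.50 and 7.53 with control siRNA and 8, 7.73 and 7.68 with CTNNB1 siRNA. The groups did not overlap, with 0.10 log2 units between them, and knockdown array 1 was the highest. The difference of 0.27 ± 0.11 log2 units (95% confidence interval 0.03 to 0.51) did not pass the test (adjusted p = 0.2). It was 0.17 without CTNNB1 siRNA replicate 1. Its adjusted p was between 0.0736 and 0.45 in the 18 other settings.

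Other transcribed genes overlap both inhibitor genes in RefSeq. TIMP2 shares its locus on chromosome 17 with CEP295NL, a gene of little known function that is described here only because of this overlap. CEP295NL rose from 5.41 ± 0.10 to 6.03 ± 0.13 (SD, n = 3 each), by 0.62 ± 0.11 log2 units (adjusted p = 0.0116). Whether transcripts of one locus contribute to the signal of the other was not tested, so the rise is that of the TIMP2 row. SYN1, which overlaps TIMP1 on the X chromosome and encodes a synaptic vesicle protein, differed by 0.14 ± 0.14 log2 units (adjusted p = 0.629). The overlap is not limited to these genes: LOC124904068 also overlaps TIMP2, WTAPP1 overlaps MMP1 and MMP3, and SLC12A5-AS1 overlaps MMP9. None of these was among the genes measured.

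**Figure D2:**
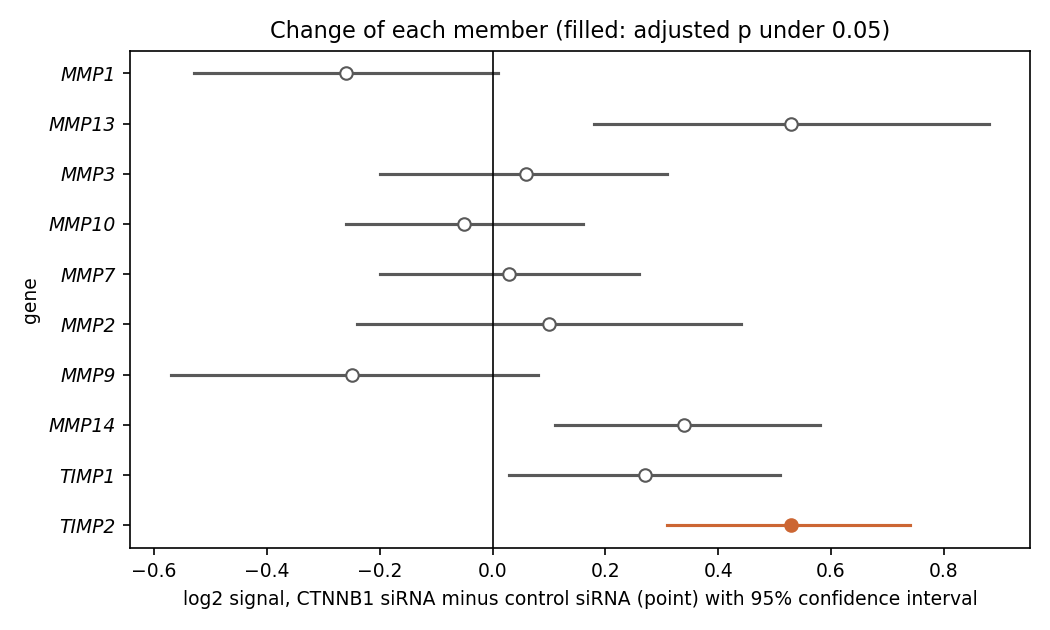
Log2 signal with CTNNB1 siRNA minus control siRNA (horizontal axis) for each gene, with the 95% confidence interval from the fit on 3 arrays per group; the filled point passed the test. Only the TIMP2 point is filled; the intervals of MMP13, MMP14 and TIMP1 also lie above 0 but did not pass after adjustment over all genes.

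The membrane-anchored proteinase MMP14 activates pro-MMP2, with TIMP2 as the bridge between them. MMP14 measured 5.79, 5.94 and 5.87 in control arrays and 6.06, 6.35 and 6.21 in knockdown arrays. The groups were apart by 0.12 log2 units, close to the array medians. The difference was 0.34 ± 0.11 log2 units (95% confidence interval 0.11 to 0.58) and did not pass (adjusted p = 0.0998, and between 0.056 and 0.304 in 17 other settings, of which the threshold of 0.10 alone made it a call).

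MMP2, a gelatinase, measured 5.10, 5.29 and 4.94 in control arrays and 5.10, 5.54 and 4.98 in knockdown arrays. The groups overlapped below the array medians, and knockdown array 2 was the highest. The difference of 0.10 ± 0.15 log2 units (adjusted p = 0.764) became -0.06 without CTNNB1 siRNA replicate 2. The 95% confidence interval ran from -15.1% to 35.5% in signal, and a signal this dim can understate a change.

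MMP9, the other gelatinase and one often made by leukocytes, measured 5.25, 5.57 and 5.28 with control siRNA and 5.21, 5.32 and 4.82 with CTNNB1 siRNA. All values lay below the array medians and the groups overlapped. The difference was -0.25 ± 0.14 log2 units with a 95% confidence interval of -0.57 to 0.08 (adjusted p = 0.387). It was -0.10 without CTNNB1 siRNA replicate 3, and leaving out control replicate 2 gave -0.14.

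Matrilysin, which held both motifs among the 4 promoters searched, stayed within its replicate spread. MMP7 measured 9.39, 9.17 and 9.41 in control arrays and 9.35, 9.41 and 9.30 in knockdown arrays. All knockdown values lay within the range of the controls, and the row was well above the array medians. The difference was 0.03 ± 0.10 log2 units (adjusted p = 0.9), and the 95% confidence interval ran from -12.7% to 19.7% in signal. The MMP7 difference became -0.04 without control replicate 2.

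The stromelysin genes, whose products cut many matrix proteins and other proenzymes, were dim. MMP3 measured 3.77, 3.84 and 3.53 with control siRNA and 3.84, 3.84 and 3.63 with CTNNB1 siRNA, a difference of 0.06 ± 0.11 log2 units (adjusted p = 0.82) that became -0.03 without control replicate 3. MMP10, which has the AP-1 motif printed above, measured 4.11, 3.99 and 4.09 with control siRNA and 3.98, 4.07 and 3.98 with CTNNB1 siRNA. Its groups overlapped, as did those of MMP3, and its difference was -0.05 ± 0.09 log2 units (adjusted p = 0.807). MMP3 and MMP10 are close relatives, and whether their rows share signal was not tested.

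The collagenase genes, whose products cleave fibrillar collagen, lay on opposite sides of the controls. MMP1 (collagenase 1) measured 6.75, 6.75 and 7.03 in control arrays and 6.59, 6.42 and 6.73 in knockdown arrays. The groups were apart by 0.02 log2 units, less than the SD of 0.16 within each group. The difference was -0.26 ± 0.12 log2 units (95% confidence interval -0.53 to 0.01; adjusted p = 0.258), and -0.17 without control replicate 3.

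MMP13 (collagenase 3) measured 4.27, 3.91 and 4.08 with control siRNA and 4.95, 4.54 and 4.35 with CTNNB1 siRNA. The groups were apart by 0.07 log2 units and knockdown array 1 stood highest, but every value lay below the array medians. The difference was 0.53 ± 0.16 log2 units (95% confidence interval 0.18 to 0.88) and did not pass (adjusted p = 0.0859). It passed without CTNNB1 siRNA replicate 3 (0.66, adjusted p = 0.0476), was lowest without CTNNB1 siRNA replicate 1 (0.36, adjusted p = 0.242), and had an adjusted p of 0.131 to 0.207 without any other array. Its size was that of TIMP2, with a wider error.

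In all, 5 members had groups that did not overlap, MMP13, MMP14, TIMP1 and TIMP2 higher and MMP1 lower, that is 50% of the 10 where 26.0% of all genes had such groups. Among all genes 10.8% were apart with the knockdown higher and 15.2% with it lower.

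**Figure D3:**
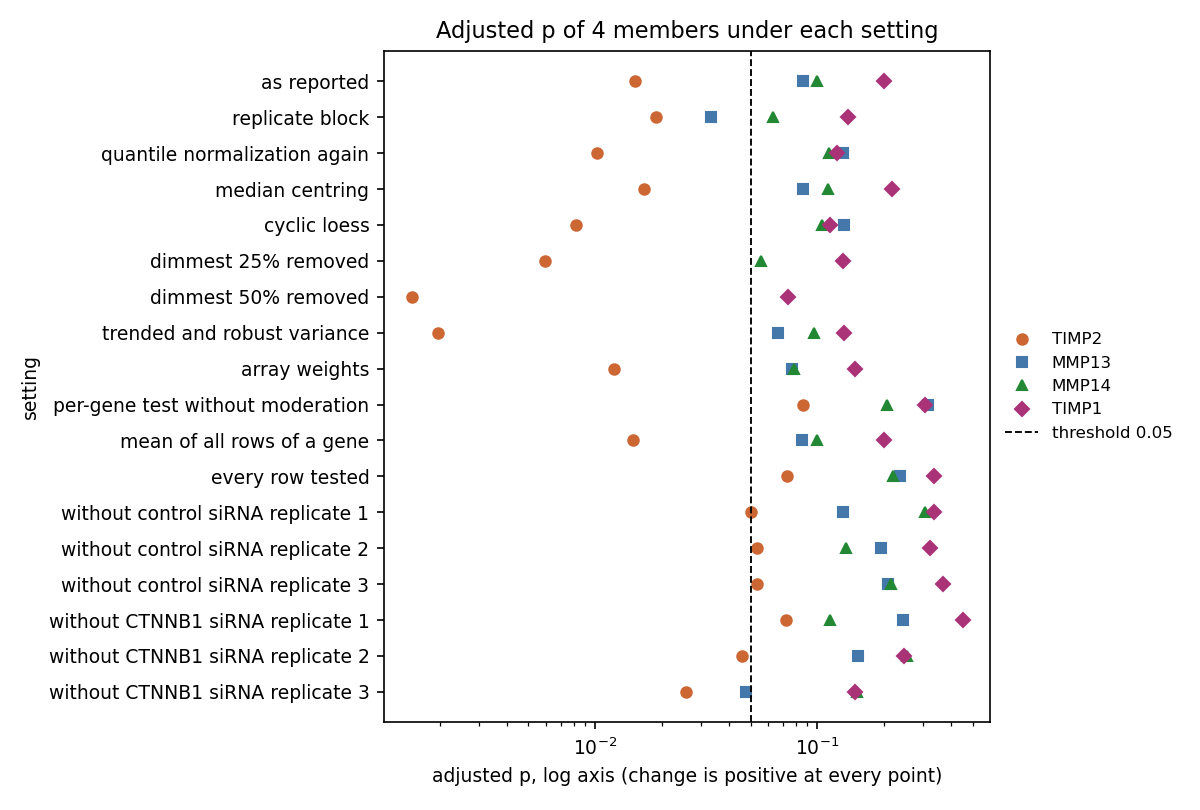
Adjusted p on a log axis (horizontal) for TIMP2, MMP13, MMP14 and TIMP1 under each setting (vertical), with the threshold of 0.05 as a dashed line; a gene missing from a row was removed there as dim. TIMP2 lies between 0.00149 and 0.086, and MMP13 is below the line with the replicate block and without CTNNB1 siRNA replicate 3.

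Position in the genome is shared by 5 of the members. In RefSeq order, MMP7, MMP20, MMP27, MMP8, MMP10, MMP1, MMP3, MMP12 and MMP13 are neighbouring MMP genes on chromosome 11, and all 9 were measured. None of the 9 was called (limma), and 1, MMP13 at one end of the group, had an unadjusted p under 0.05. The 4 cluster genes that are not members, MMP8 (neutrophil collagenase), MMP12 (macrophage elastase), MMP20 (enamelysin) and MMP27, differed by between -0.09 and 0.06 log2 units. MMP12, next to MMP13, was at -0.07 ± 0.11. Differences between neighbours were not tested.

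**Figure D4:**
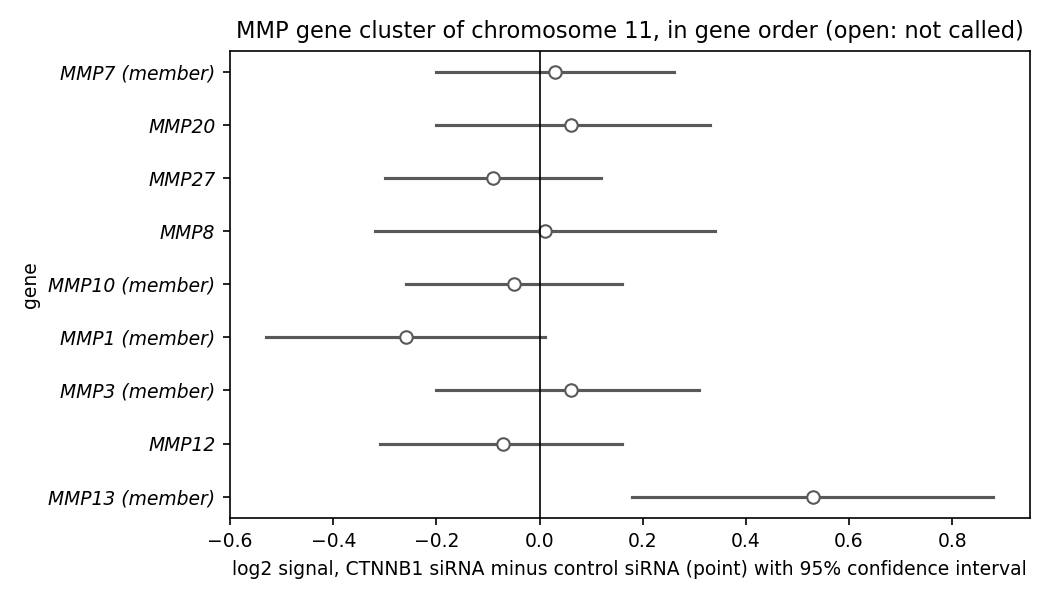
Log2 difference, CTNNB1 siRNA minus control siRNA (horizontal axis), with 95% confidence intervals for the 9 MMP genes of the chromosome 11 cluster in gene order from MMP7 (top) to MMP13 (bottom). Open points did not pass the test; the MMP13 interval, 0.18 to 0.88, lies apart from 0.

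Counting every MMP gene measured, 22 in all, none was called by limma. The test without moderation called 0 of them, and 111 of all 18417 genes. Of the 22, 4 had an unadjusted p under 0.05, all higher. In either direction, that is close to the 20.3% of all genes at this cut, while 8.34% of all genes passed with the knockdown higher. Among the 14 outside the members, MMP28 (epilysin, made by epithelia) measured 6.14, 6.33 and 6.07 in control arrays and 6.58, 6.62 and 6.49 in knockdown arrays. Its groups did not overlap, and its difference of 0.38 ± 0.10 log2 units did not pass (adjusted p = 0.0693). MMP15, a membrane-type relative of MMP14, differed by 0.29 ± 0.13 (adjusted p = 0.242). Of the 12 other inhibitors none was called by limma or without moderation, and 1 had an unadjusted p under 0.05, a smaller share than the 20.3% of all genes. This was SERPINE2, an inhibitor of serine proteinases such as urokinase, at -0.37 ± 0.15 (adjusted p = 0.215). TIMP4 differed by 0.25 ± 0.12 (adjusted p = 0.256) and TIMP3 by 0.02 ± 0.11 (adjusted p = 0.935). Both were dim.

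Activators and surface partners of MMPs held 1 called gene of 23 measured, where 4.72% of all genes were called. CLDN1, a tight junction claudin described as promoting pro-MMP2 activation by membrane-type MMPs, rose from 9.99 ± 0.04 to 10.54 ± 0.13 (SD, n = 3 each), or 1.47-fold (limma, adjusted p = 0.0142). Its call was lost without control replicate 1 (adjusted p = 0.0635) and without CTNNB1 siRNA replicate 1 (adjusted p = 0.068). The call was also lost with every row tested (adjusted p = 0.0727) and without moderation of the variance (adjusted p = 0.0993). ST14, the epithelial membrane serine proteinase matriptase, differed by 0.43 ± 0.11 (adjusted p = 0.0516). It passed in 7 of 18 other settings, among them cyclic loess (0.51, adjusted p = 0.0216) and the threshold of 0.10. With single arrays left out its adjusted p was 0.0581 to 0.205. The urokinase gene PLAU differed by 0.15 ± 0.10 (adjusted p = 0.481). The list's median was 0.10 log2 units.

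Of 25 related ADAM and ADAMTS proteinases, which shed membrane proteins or cut proteoglycans, none was called. Of these, 3 had an unadjusted p under 0.05, a smaller share than the 20.3% of all genes. The test without moderation, which called 111 of all 18417 genes, called 0 of them. ADAM28 differed by 0.28 ± 0.11 (adjusted p = 0.171) and ADAMTS19 by 0.26 ± 0.10 (adjusted p = 0.18). The list's median was 0.04.

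Among 37 matrix and basement membrane genes, substrates of these enzymes, there were 2 called genes, both lower, where 4.72% of all genes were called. An unadjusted p under 0.05 was found for 7 of the 37, where 20.3% of all genes passed this cut. The list's median was 0.10. LAMB1, the laminin beta-1 chain, measured 9.53, 9.44 and 9.56 with control siRNA and 8.84, 8.65 and 8.83 with CTNNB1 siRNA. All knockdown arrays lay below all controls. It fell by 0.74 ± 0.10 log2 units (limma, adjusted p = 0.00301) and was called with any 1 array left out. Its call was lost in the per-gene test without moderation (adjusted p = 0.0609). LAMC1, the laminin gamma-1 chain, fell by 0.42 ± 0.10 (adjusted p = 0.0409), but did not pass without any 1 of the 6 arrays (adjusted p from 0.0518 without control replicate 2 to 0.169 without control replicate 1). It also did not pass under cyclic loess (-0.35, adjusted p = 0.0573), with every row tested (adjusted p = 0.124) or without moderation (adjusted p = 0.106). The beta-2 chain LAMB2 differed by 0.38 ± 0.10 in the other direction (adjusted p = 0.0512).

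Transcription factors known from MMP promoters held most of the called genes: of 25 measured, 5 rose and 1 fell, and the median was 0.15. Of all genes, 2.07% rose and 2.65% fell. FOS, an AP-1 subunit, measured 9.77, 10.43 and 10.26 in control arrays and 11.33, 11.14 and 11.02 in knockdown arrays, and rose by 1.01 ± 0.16 log2 units (adjusted p = 0.00763). JUNB, its partner in AP-1, measured 7.23, 7.15 and 7.25 against 8.19, 8.05 and 7.78, and rose by 0.79 ± 0.12 (adjusted p = 0.00528). FOSL2, another AP-1 subunit, rose by 0.53 ± 0.11. These were 3 of the 7 FOS and JUN genes measured. The other 4, outside the naming rule, did not pass: JUN differed by 0.42 ± 0.11 (adjusted p = 0.0603), JUND by 0.42 ± 0.11 (adjusted p = 0.0561), FOSL1 by 0.08 ± 0.12 (adjusted p = 0.762) and FOSB by 0.01 ± 0.20 (adjusted p = 0.989). AP-1 protein was not measured.

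TCF7L2, one of the TCF/LEF factors, rose by 0.49 ± 0.11 log2 units (adjusted p = 0.0419). ETV5, an ETS factor, fell by 0.44 ± 0.10 (adjusted p = 0.03). The remaining call, outside the naming rule and chosen after its values were seen, was the epithelial ETS factor ELF3 at 0.48 ± 0.12 (adjusted p = 0.0462). JUNB was called with any 1 array left out, and FOS with any but CTNNB1 siRNA replicate 1 (adjusted p = 0.0563). In the per-gene test without moderation neither passed (adjusted p = 0.105 for JUNB and 0.154 for FOS). FOS also did not pass with every row tested (adjusted p = 0.0704). Single arrays ended the calls of FOSL2, ETV5 and TCF7L2, with adjusted p up to 0.128 and 0.135 without control replicate 1 for the first 2 and 0.146 without CTNNB1 siRNA replicate 1 for TCF7L2. Each of these genes lost its call in 7 of the 18 other settings, among them every row tested and no moderation. Over all 136 genes of these lists, 6 rose and 3 fell, where 2.07% of all genes rose and 2.65% fell. The rises numbered 2, 3 and 3 without control replicates 1, 2 and 3, and 1, 4 and 4 without CTNNB1 siRNA replicates 1, 2 and 3. The falls numbered 1, 2 and 1, and 1, 1 and 1, in the same order.

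**Figure D5:**
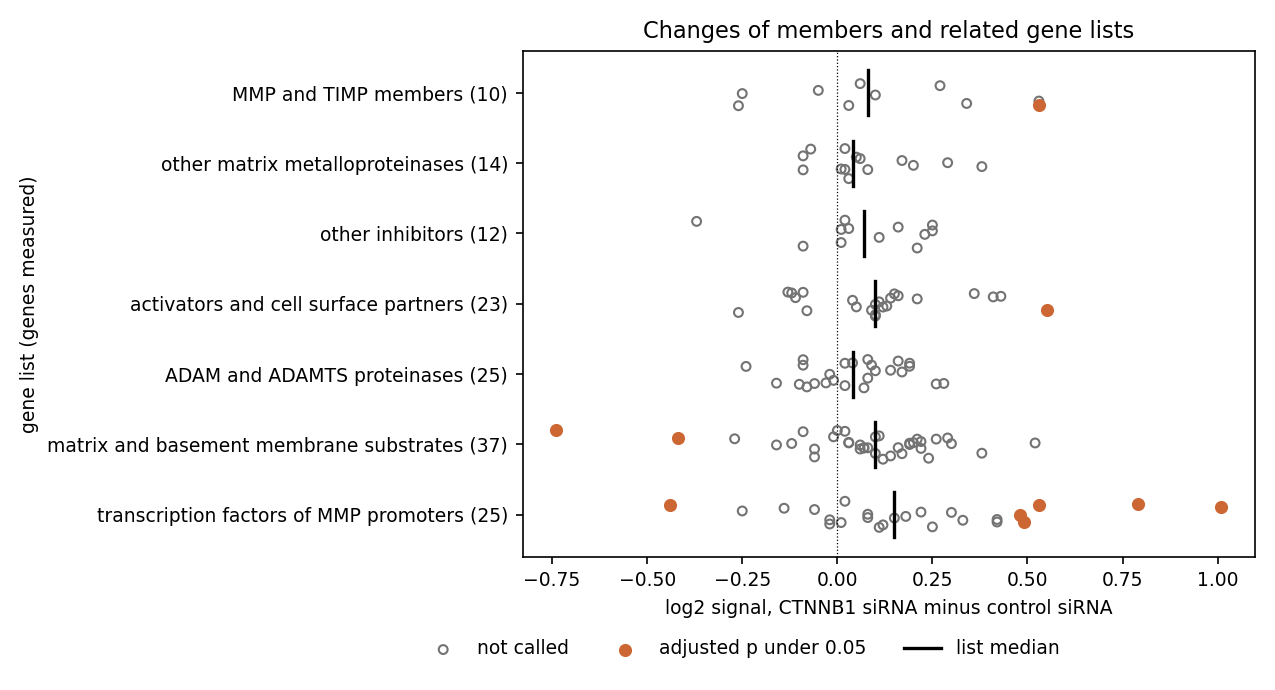
Log2 difference, CTNNB1 siRNA minus control siRNA (horizontal axis), of every measured gene in the members and 6 related lists (vertical axis, genes measured in brackets); filled points passed the test and black bars mark list medians. Medians lie between 0.04 and 0.15; the widest range is among the transcription factors, from -0.44 to 1.01.

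The genes whose array-to-array pattern was most like that of TIMP2 were GRK5, a kinase of G protein-coupled receptors, RNF213, a large ubiquitin ligase, and SPATS2L, a gene of little known function. Likeness was the root mean square difference between gene-centred log2 signals over the 6 arrays, taken against 18416 genes, and it was 0.0454, 0.0465 and 0.0482. GRK5 measured 7.27 ± 0.07 and 7.85 ± 0.09, RNF213 9.75 ± 0.08 and 10.25 ± 0.12, and SPATS2L 10.76 ± 0.09 and 11.30 ± 0.02 (SD, n = 3 each) with control and CTNNB1 siRNA. The mean of all GRK5 rows differed by 0.20 only (adjusted p = 0.33). Among the members TIMP1 was nearest, at 0.144, followed by MMP13 at 0.145. The likeness is a description and holds no test.

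Markers of cells that could bring MMPs or TIMPs of their own were read in the same arrays, although the labels name 1 cultured cell line only. In such bulk RNA, fewer cells of a type and less RNA per cell cannot be told apart. All 7 epithelial markers measured lay above the array medians in every array, and 1 of them, the claudin gene CLDN4, rose by 0.61 ± 0.10 log2 units (adjusted p = 0.00763). Of 11 gastric and intestinal markers 7 lay above the medians in every array and 2 below them in every array. From this list 1, the trefoil peptide gene TFF1, rose 2.22-fold (adjusted p = 3.14e-04). Of all 18417 genes, 10466 lay above the medians in every array and 6556 below them in every array. Of 11 fibroblast markers 8 lay below the medians in every array, as did 7 of 8 endothelial and 18 of 22 leukocyte markers. Mean signals over the fibroblast list were 4.48 to 4.54 in control and 4.52 to 4.65 in knockdown arrays, and over the macrophage list 5.04 to 5.15 and 5.14 to 5.4. CD68, a lysosomal gene used as a macrophage marker, rose from 8.98 ± 0.27 to 9.93 ± 0.16 (SD, n = 3 each; adjusted p = 0.00547), and none of the other 8 macrophage markers was called. RMA gives no zero, so no marker was listed at 0, and the part of such cells in the TIMP2 result was not tested.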

How the data were processed

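Affymetrix Human Gene ST arrays were run on total RNA (500 ng per sample) of 6 YCC3 samples, 3 per group as the titles give them. The deposited signals come from RMA and Affymetrix Expression Console 1.1, per the submitters' processing notes. No label states their scale, and their range of 0.789 to 14.5 is that of log2 values, as which the deposited table was used. RMA corrects background, equalises the distributions of the arrays and summarises the probes of a row, so it hides a shift that most genes have in common. The genome build of the authors is not given in the sources used here.

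Of 33297 rows, 19460 had 1 gene symbol in the platform annotation, 1754 several and 12083 none. The brightest row per gene over the 6 arrays left 18417 genes, with no filter on dim genes. CTNNB1 siRNA minus control siRNA was fitted over all genes with lmFit and eBayes of limma 3.58.1 (R 4.3.3), two-sided, with Benjamini-Hochberg adjustment and a threshold of 0.05. "Rose" and "fell" are used of genes past it. The fit was run on simulated data with independent normal noise for each gene, which checks the code and not the calls made here. Replicate arrays differed by an SD of 0.203 to 0.262 log2 units, and the number of arrays limits the precision.

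The members and lists were chosen with earlier results of these data known. Named are CTNNB1, the 10 members, the called genes of each of 6 related lists (at most 5 by p, or the 2 with the smallest p), the 3 genes nearest to the member with the smallest p, and the neighbours of members in a gene cluster. List genes named beyond this rule were chosen after their values were seen: ELF3, TIMP3, PLAU, LAMB2, JUN, JUND, FOSL1, FOSB, CD68, CLDN4 and TFF1, with CEP295NL and SYN1 named for their overlap. The unmeasured LOC124904068, WTAPP1 and SLC12A5-AS1 were named for the same reason. Of 147 list genes, 11 had no row with 1 symbol and were not analysed here. Alternatives were 3 other scalings, 2 filters on dim genes, other variance models, array weights, other row choices, a threshold of 0.10, a replicate block and leaving out each array.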

Additional observations from a re-analysis of the deposited data

How the results depend on the processing

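The fall of CTNNB1 kept its direction in all 18 alternatives and its call in 17, the exception being the per-gene test without moderation (-0.77, adjusted p = 0.066). With single arrays left out it ranged from -0.84 to -0.71. The count of members called higher, 1 as reported, was 2 with the replicate block, 3 at a threshold of 0.10, and 0 without moderation and with every row tested. Leaving out single arrays gave 0 to 2. None of the members was called lower in any of the 18 alternatives. The related genes called higher, 6 as reported, numbered 10 after a second quantile normalization, 11 under cyclic loess, a trended and robust variance or array weights, 13 with the dimmest 25% or 50% removed or at a threshold of 0.10, 1 with every row tested and 0 without moderation. Those called lower, 3 as reported, numbered 1 with every row tested and 0 without moderation. Single arrays left out gave 1 to 4 higher and 1 to 2 lower. By design the filters test fewer genes, every row tested adds rows to the adjustment, and a missing array leaves fewer samples. The cause of the differing counts was not tested.

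Among the members, 3 changes reversed their sign, each small and uncalled: with single arrays left out, MMP2 ranged from -0.06 (without CTNNB1 siRNA replicate 2) to 0.21, MMP3 from -0.03 (without control replicate 3) to 0.13 and MMP7 from -0.04 (without control replicate 2) to 0.07. Deviations of same-numbered arrays correlated at -0.02, 0.33 and 0.22 for replicates 1, 2 and 3. Those of differently numbered arrays correlated at -0.29 to 0.08, so the replicate numbers paired the arrays in part at most. With the replicate block, MMP13 had a difference of 0.53 (adjusted p = 0.0333) and MMP28 of 0.38 (adjusted p = 0.0489), and 1177 genes were called against 870 without it. Not every array correlated best with its own number. With single arrays left out, 283 (CTNNB1 siRNA array 1) to 877 (CTNNB1 siRNA array 3) of all genes were called, with 288 without control array 1, 372 without control array 3 and 421 without CTNNB1 siRNA array 2, against 111 without moderation and 195 of the genes with every row tested. They numbered 1483 and 1861 with the dimmest 25% and 50% removed, 1622 with a trended and robust variance and 1668 at a threshold of 0.10. No scaling moved the median of all genes by over 0.1 log2 units. By design these scalings, like RMA, bring the arrays to a common level, so that median cannot show a shift that most genes share. Dim members (MMP2, MMP3, MMP9, MMP10 and MMP13 below the array medians in every array) may understate changes.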
